A study of Homo sapiens with 2 samples.

Results

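The genes described here are CXCL1, CXCL2, CXCL3, CXCL5, CXCL6, CXCL8 and CSF3, a set of 6 CXC chemokines and 1 growth factor that act on neutrophils. They were taken by gene symbol, and all 7 were found among the 36601 genes of the count matrices. Their RNA was followed in colon organoids derived from 1383D6, an established line of human induced pluripotent stem (iPS) cells. One group, CNT, received no added cytokines. The other, 3CK, was kept for 8 days with 3 inflammatory cytokines (IL-1β, TNF-α, IFN-γ), as a model of ulcerative colitis per the title of the study. The labels do not give the number of cultures behind each library, and each group is called a culture below. Both groups carry the same cell line and went through the same differentiation, so the cytokines are the labelled difference between them. Each group is 1 library of dissociated single cells, so no comparison has a replicate check and no p-value is given. All intervals are 95% intervals for counting error alone, and a difference between the libraries cannot be told apart from a difference between any 2 cultures or captures.

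CXC chemokines with a glutamate-leucine-arginine motif before the first cysteines are the classical attractants of neutrophils and act through the receptors CXCR1 and CXCR2. CSF3, also called G-CSF, drives the production and release of neutrophils from the bone marrow and prolongs their survival through its receptor CSF3R. In the inflamed colon both epithelial cells and fibroblasts are known sources of these ligands, and TNF-α and IL-1β induce them through NF-κB, through AP-1 and C/EBP factors and by slowing the decay of their AU-rich mRNAs.

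The 6 chemokine genes lie in 358.678 kb of chromosome 4 (GRCh38, GENCODE v44 annotation). CXCL8 spans 73740519 to 73743716, CXCL6 73836640 to 73849064 and CXCL1 73869393 to 73871308 on the plus strand. On the minus strand CXCL5 spans 73995642 to 73998677, CXCL3 74036589 to 74038807 and CXCL2 74097040 to 74099196. CSF3 lies apart on chromosome 17, at 40015361 to 40017813 on the plus strand. The promoters of the 6 chemokine genes were in the RefSeq table used (GRCh38.p14), and a stretch of each upstream of the transcription start is shown because the 6 genes were higher together in the treated culture. Each line runs 5′ to 3′ on the strand of the gene from base -140 to base -51 before the start, and capitals mark the longest run of bases that all 6 promoters hold.
CXCL1: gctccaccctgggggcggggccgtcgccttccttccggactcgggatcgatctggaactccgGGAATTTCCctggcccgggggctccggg
CXCL2: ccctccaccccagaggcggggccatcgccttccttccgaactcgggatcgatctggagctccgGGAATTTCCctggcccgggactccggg
CXCL3: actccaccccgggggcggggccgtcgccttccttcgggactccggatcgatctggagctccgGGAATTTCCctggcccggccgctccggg
CXCL5: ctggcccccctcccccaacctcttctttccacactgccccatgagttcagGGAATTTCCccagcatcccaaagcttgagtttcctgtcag
CXCL6: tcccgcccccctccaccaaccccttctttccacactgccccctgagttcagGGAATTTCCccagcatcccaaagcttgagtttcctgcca
CXCL8: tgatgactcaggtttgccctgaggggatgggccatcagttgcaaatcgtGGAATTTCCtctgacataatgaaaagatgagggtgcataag
In genome coordinates these are chr4:73869253-73869342 (CXCL1, plus strand), chr4:74099246-74099335 (CXCL2, minus), chr4:74038740-74038829 (CXCL3, minus), chr4:73998728-73998817 (CXCL5, minus), chr4:73836538-73836627 (CXCL6, plus) and chr4:73740429-73740518 (CXCL8, plus). In GENCODE v44 no transcript overlaps the CXCL1, CXCL2, CXCL6 and CXCL8 windows. The CXCL3 window overlaps the first exon of a CXCL3 transcript with no defined coding sequence, and the CXCL5 window overlaps the first exon of a long noncoding RNA gene on the other strand.

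The capitalised run GGAATTTCC is 9 bases long and lies between base -91 and base -69 in every one of the 6 promoters. It occurred on either strand in 162 of the 35116 promoters of the table, or 0.461%. The run was searched for after the promoters had been read, and the members were picked as a family, so the count is a description. The consensus motif of NF-κB, which overlaps the run, was found in 5 of the 6 promoters and in 11.3% of all promoters. The 1 without a match was CXCL8, whose run is flanked by other letters. An AP-1 motif (TGANTCA, both strands) was present only in the CXCL8 promoter, at -137 to -131, and in 7.71% of all promoters. A C/EBP motif (TTGCNNAA, both strands) was matched only in the CXCL2 promoter, at -188 to -181, and in 10.5% of all promoters. The printed CXCL8 stretch holds ttgcaaat, which departs from this pattern only at its last base. A missing match to this narrow pattern is therefore not a missing site. A match is a stretch of letters and says nothing of binding in these cells. Over 250 bases upstream the promoters fell into like groups. CXCL5 and CXCL6 were 85.3% identical, and CXCL1, CXCL2 and CXCL3 were 70.4% to 81.4% identical with each other, whereas CXCL8 was 42.0% to 45.4% identical with the others. CXCL2 also shares stretches of its transcript with CXCL1 and CXCL3. Of 1115 stretches of 60 bases in the CXCL1 transcript, 28 occurred unchanged in CXCL2, and 26 of these were among the last 441, where 3′ reads fall. CXCL2 and CXCL3 shared 38 of 1056, none of them in the last 441, and CXCL1 and CXCL3 shared 0. Reads from those stretches cannot be divided between the 2 genes, so the sum of CXCL1, CXCL2 and CXCL3 is given beside the single genes.

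After the filters 2487 CNT cells with 101582054 UMIs and 1398 3CK cells with 91863865 UMIs were kept, and the libraries shared 0 barcodes. The median depth was 28895 UMIs per cell in CNT and 62746 in 3CK. Cells with at least 2 EPCAM UMIs per 10000 were called epithelial: 1655 (66.5%) in CNT and 1016 (72.7%) in 3CK, of which 495 and 49 also had at least 5 collagen UMIs per 10000. Cells with at least 5 UMIs per 10000 of the collagens COL1A1, COL1A2 and COL3A1 and under 1 of EPCAM were called mesenchymal: 577 (23.2%) and 124 (8.87%). The remaining 255 (10.3%) and 258 (18.5%) cells were in neither class. The 3 collagens were themselves lower in 3CK, by 2.05 to 2.67 on the log2 scale over all cells, and how far this set the size of the mesenchymal class was not tested. The titles of the samples call the cells colon epithelial, and the data hold that only in part. The intestinal transcription factor CDX2 was at 66.7 CPM (UMIs per 1000000 UMIs) in untreated and 69.6 CPM in treated cells. Its mesenchymal level was 35.8% of the epithelial level in CNT and 42.8% in 3CK. The liver and yolk sac transcript TTR, however, was at 49029 and 15306 CPM, and collagen-rich cells were a sizeable share. Leukocyte transcripts were low. The 12 markers summed to 90.7 CPM in CNT and to 194 CPM with cytokines, FCGR3B was at 0 UMIs in both, and the pan-leukocyte gene PTPRC had 32 and 41 UMIs. Of the 7 markers that reached 1 CPM, 3 were at least 2-fold higher in 3CK, against 6.97% of all genes that did. They were S100A8 (41 and 782 UMIs, log2 ratio 4.40), S100A9 (1.38) and TYROBP (1.02). CSF1R was at least 2-fold lower (-1.41), against 11.4% of all genes.

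All 7 genes were higher in the treated culture, by between 8.74-fold (CXCL2) and 553-fold (CSF3). Each member passed a 2-fold difference, against 6.97% of the 17523 genes that reached 1 CPM in at least 1 library. The median log2 ratio of the 7 was 4.71, beside -0.06 for all these genes. Summed, the 7 genes made up 74.9 CPM of the untreated and 1617 CPM of the treated library. Levels are relative to all UMIs of the cells named, and since each transcript is counted once at its 3′ end they carry no length scaling.

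CXCL1, CXCL2 and CXCL3 are the GRO chemokines, closely related paralogs that act mainly on CXCR2. CXCL1 stood at 17.8 CPM in CNT and at 465 CPM in 3CK, 26.1-fold higher, which is 4.71 on the log2 scale (4.64 to 4.78). CXCL2 was the most abundant of the 7 in CNT, at 19.4 CPM, and had the smallest ratio, 169.8 CPM in 3CK and 3.13 (3.06 to 3.20). CXCL3 was at 8.92 and 93.1 CPM, 3.38 (3.28 to 3.48). The 3 intervals did not overlap, so these paralogs differed in ratio by more than counting error. Their sum was at 46.1 and 728 CPM, with a log2 ratio of 3.98. CXCL5, a chemokine known mainly from epithelium, was at 18.0 CPM untreated and was the most abundant member in 3CK, at 514 CPM, with a ratio of 4.83 (4.77 to 4.90). CXCL6, its nearest paralog, was far less abundant, at 1.33 and 16.4 CPM, with a ratio of 3.62 (3.37 to 3.89). CXCL8, or interleukin-8, which mice and rats lack and which signals through both receptors, was at 9.25 and 271 CPM, a ratio of 4.87 (4.78 to 4.97). A single CNT barcode held many of the few untreated CXCL8 UMIs. Without the top barcode of each library the ratio was 5.48. For CSF3 only 16 UMIs were counted in CNT (0.158 CPM), against 7996 in 3CK (87.0 CPM), giving 9.11 (8.41 to 9.92). The ratio for CSF3 was 10.40 without the top barcodes, so its size rests on a handful of untreated UMIs.

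**Figure D1:**
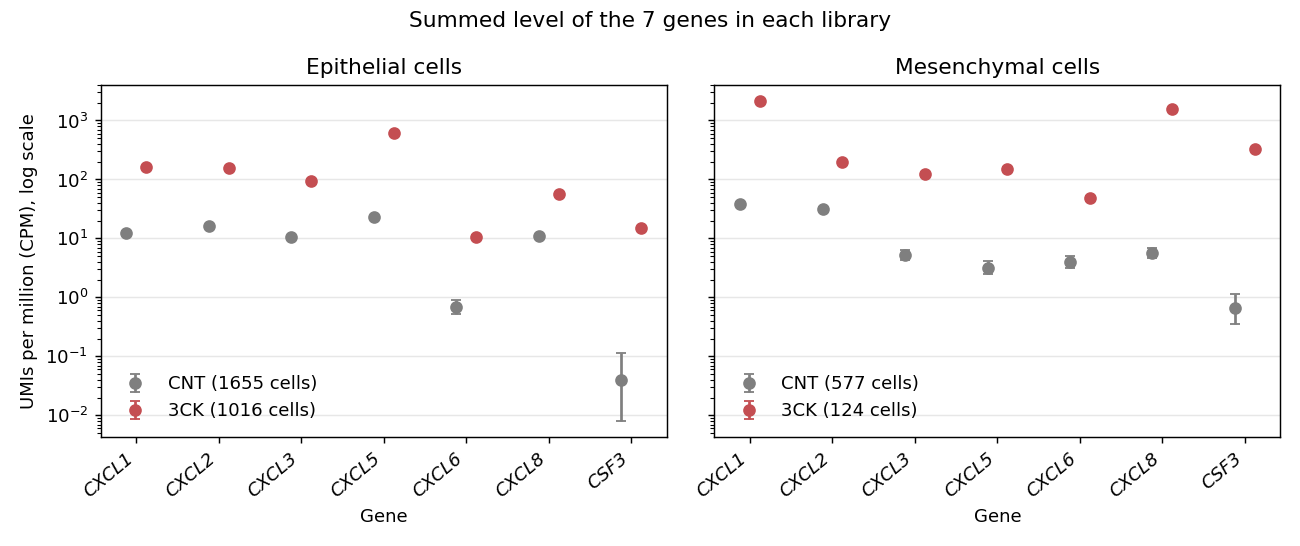
CPM of each of the 7 genes (log axis) in the CNT and the 3CK library, for epithelial and mesenchymal cells, with exact Poisson intervals for counting error. Every gene is higher in 3CK than in CNT in each class, and in 3CK the highest points are CXCL5 in epithelial cells (614 CPM) and CXCL1 and CXCL8 in mesenchymal cells (2116 and 1575 CPM).

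In the epithelial cells CXCL5 led. Its level was 22.9 CPM in CNT (1738 UMIs) and 614 CPM in 3CK (43045 UMIs), 26.8-fold higher, with a log2 ratio of 4.74 (4.67 to 4.81). All 7 genes were at least 2-fold higher in 3CK epithelial cells, against 8.47% of 16830 genes, and the median of the 7 was 3.72 beside 0.01 for all genes. CXCL1 was at 12.4 and 164 CPM, a ratio of 3.72 (3.63 to 3.82). CXCL2 was at 16 and 158 CPM, 3.30 (3.22 to 3.39), and CXCL3 at 10.4 and 93.4 CPM, 3.16 (3.06 to 3.27). The intervals of CXCL2 and CXCL3 overlapped and CXCL1 lay above both, and the sum of the 3 was at 38.8 and 415 CPM. CXCL6 was at 0.699 and 10.5 CPM, 3.91 (3.51 to 4.34), or 3.12 with stricter class boundaries. CXCL8 had the smallest epithelial ratio of the 7, with 10.8 CPM untreated and 55.7 CPM treated, 2.36 (2.25 to 2.47). Of the 822 CXCL8 UMIs in CNT epithelial cells 376, or 45.7%, came from 1 barcode, and the ratio was 3.15 without the top barcode in each library and 3.98 with equal weight per cell. Epithelial CSF3 went from 3 UMIs (0.0395 CPM) to 1036 (14.8 CPM) between the libraries, 8.55 (6.99 to 10.83), with 7.04 to 10.12 over the alternatives.

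In the mesenchymal cells CXCL1 and CXCL8 led. CXCL1 was at 38.8 CPM in CNT (763 UMIs) and 2116 CPM in 3CK (19287 UMIs), 54.5-fold higher. Its log2 ratio was 5.77 (5.66 to 5.87), or 7.46 with stricter class boundaries, which left 338 CNT and only 36 3CK mesenchymal cells. CXCL8 was at 5.65 CPM in CNT (111 UMIs) and 1575 CPM in 3CK (14355 UMIs), 279-fold higher, a ratio of 8.12 (7.85 to 8.41), or 8.76 without the top barcode of each library and 8.91 with those boundaries. Together these 2 genes made up most of the 4537 CPM that the 7 members summed to in 3CK mesenchymal cells, against 89.3 CPM in CNT. CXCL2 was already at 31.7 CPM in CNT and reached 195 CPM, 2.63 (2.49 to 2.76), and CXCL3 was at 5.29 and 124 CPM, 4.55 (4.26 to 4.86), or 6.19 with those boundaries. CXCL5 was at 3.21 and 153 CPM, 5.58 (5.22 to 5.97), or 4.88 with them, and CXCL6 at 4.02 and 48.2 CPM, 3.58 (3.23 to 3.95). CSF3 had 13 CNT UMIs (0.662 CPM), 10 of them in 1 barcode, and 2971 UMIs with cytokines (326 CPM), a ratio of 8.94 (8.17 to 9.86), or 10.85 without the top barcodes. All 7 were at least 2-fold higher, against 6.04% of 17351 genes (7.68% after TMM scaling). Those at least 2-fold lower were 16.7% of genes (12.9% after TMM scaling). The median of the 7 was 5.58 beside -0.21 for all genes.

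The 2 classes did not respond by the same factor. The mesenchymal log2 ratio exceeded the epithelial one by 5.76 for CXCL8, which is 54.2-fold, by 2.04 for CXCL1 and by 1.39 for CXCL3. For CXCL8 the excess was 20.7-fold with equal weight per cell and 133-fold with stricter class boundaries. For CXCL1 and CXCL3 it was 18.4-fold and 9.56-fold with those boundaries. The values with stricter boundaries rest on 36 mesenchymal 3CK cells. For CXCL5 the mesenchymal log2 ratio exceeded the epithelial one by 0.84. That difference was 0.20 with stricter class boundaries and -0.01 with equal weight per cell, so it depended on these choices. For CSF3 the excess was 0.40, and the intervals of the 2 classes overlapped. For CXCL2 it was smaller by 0.68 (a difference of -0.68), and for CXCL6 by 0.33 (-0.33), with overlapping intervals. Among the GRO genes, therefore, CXCL2 had the larger ratio in epithelial cells, and CXCL1 and CXCL3 in mesenchymal cells.

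**Figure D2:**
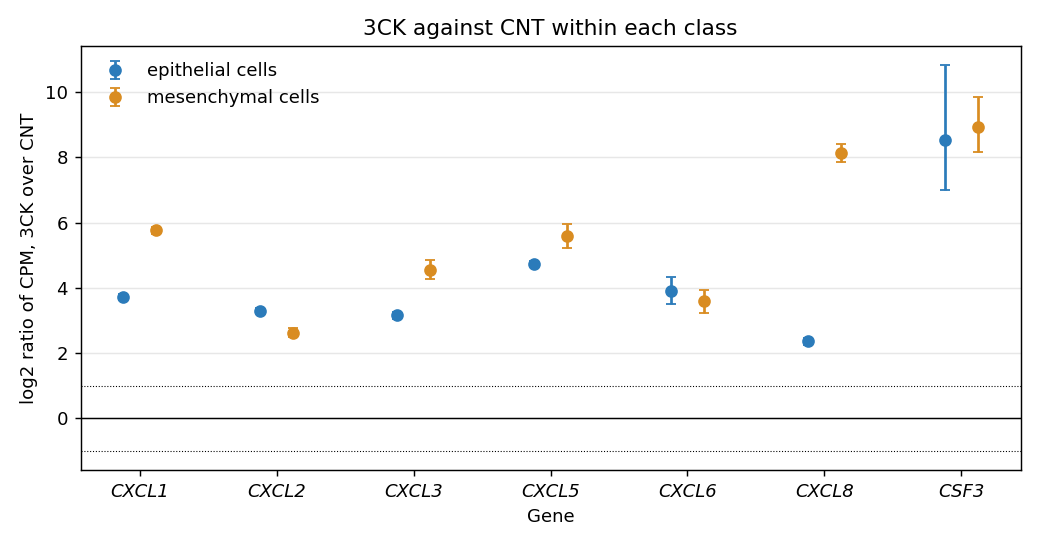
Log2 ratio of CPM, 3CK over CNT, for each of the 7 genes in epithelial and mesenchymal cells, with intervals for counting error. Dotted lines mark a 2-fold difference, all points lie above the upper one, and the largest gap between the classes is that of CXCL8, at 2.36 in epithelial and 8.12 in mesenchymal cells.

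To see which cells carried each ligand, mesenchymal cells were set against epithelial cells within each library. In the untreated culture CXCL5 was lower in mesenchymal cells by 2.84 on the log2 scale (a ratio of -2.84), and CXCL8 and CXCL3 were also on the epithelial side, at -0.94 (-1.24 to -0.65) and -0.98 (-1.29 to -0.68). CXCL1 was higher in mesenchymal cells by 1.65 (1.51 to 1.79), CXCL2 by 0.99 (0.84 to 1.13) and CXCL6 by 2.52. CSF3 had 13 mesenchymal and 3 epithelial UMIs, a log2 ratio of 4.06 (2.20 to 6.52), and stayed under 1 CPM in both classes. Of the 7 genes 3 were thus at least 2-fold higher in CNT mesenchymal cells (CXCL1, CXCL6 and CSF3) and 1 lower (CXCL5). These counts stand against 26.1% of 18051 genes higher and 15.2% lower, a split of 18.4% and 20.0% after TMM scaling. With stricter class boundaries the count higher went from 3 to 0. CXCL1 was at -0.29 and CXCL6 at 0.61, so the side of CXCL1 and the call of CXCL6 in the untreated culture depend on how the classes are drawn. CSF3 left the count because it had too few UMIs for a ratio, not by a fall below 2-fold. Under the alternatives that gave a ratio it was at 3.68 to 4.67.

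In the treated culture the order was different. CXCL8 was 28.3-fold higher in mesenchymal than in epithelial cells (log2 4.82), CSF3 22.1-fold higher (4.46), CXCL1 higher by 3.69 and CXCL6 by 2.20 on the log2 scale. With equal weight per cell CXCL8 was at 3.26, CXCL1 at 3.01 and CXCL6 at 1.23. CXCL5 was 4.00-fold lower in mesenchymal cells (-2.00), or at -3.32 with stricter boundaries (36 mesenchymal cells), which also put CSF3 at 5.88. CXCL2 and CXCL3 lay near equality, at 0.31 and 0.41, and became -0.27 and -0.94 with stricter boundaries. Of the 7 genes 4 were at least 2-fold higher in mesenchymal cells, against 19.0% of 17176 genes, and 1 was lower, against 16.8%. CXCL8 changed side between the libraries, from epithelial in CNT to mesenchymal in 3CK. So did CXCL3, from -0.98 to 0.41, but with stricter boundaries CXCL3 stayed on the epithelial side in 3CK. CXCL8 had a negative CNT ratio under all 12 alternatives run, from -2.82 to -0.84. In CNT, however, 2 barcodes held 50% of the CXCL8 UMIs in each class, and without thinning 3.81% of cells carried a UMI in both. Its epithelial side in CNT thus rests on a few high barcodes.

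**Figure D3:**
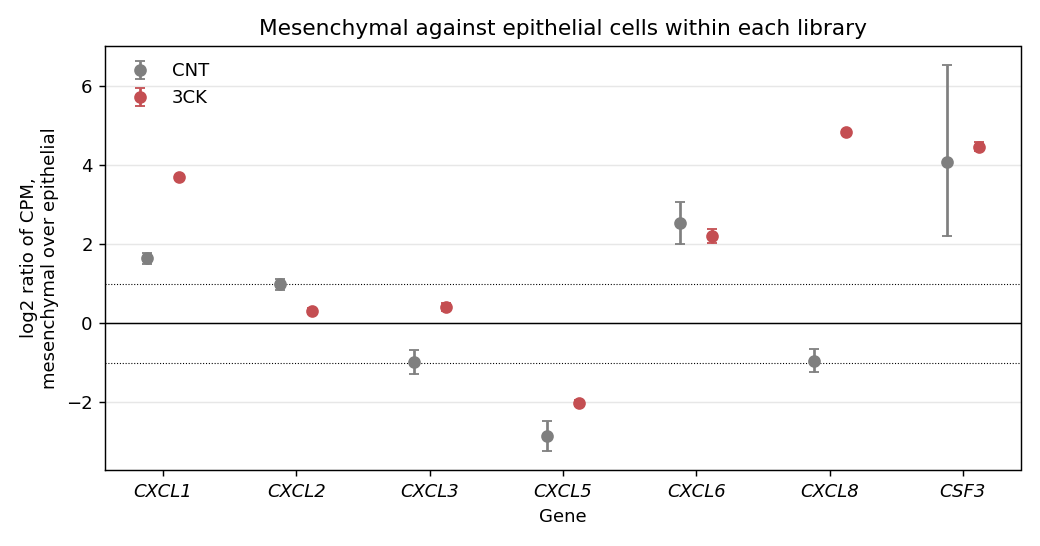
Log2 ratio of CPM, mesenchymal over epithelial cells, in the CNT and the 3CK library for each of the 7 genes, with intervals for counting error. CXCL5 lies below 0 in both libraries, CXCL6 above 0 in both, and CXCL8 moves from -0.94 in CNT to 4.82 in 3CK.

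Transcripts that mark one class were also counted in the other. In 3CK the epithelial level of the 10 mesenchymal markers was between 0.792% (DCN) and 21.2% (TAGLN) of the mesenchymal level, with a median of 4.23%. The epithelial level of CXCL8 was 3.54% of the mesenchymal level, that of CSF3 4.53% and that of CXCL1 7.74%. All 3 genes thus lay within the range of the mesenchymal markers: 4 of the 10 were above CXCL1 and 5 above CXCL8 and CSF3. CXCL6, at 21.8%, lay above all 10. In the other direction the mesenchymal level of the 9 epithelial markers was between 1.79% (EPCAM) and 63.7% (KRT18) of the epithelial level, with a median of 4.46%, and that of CXCL5 was 25%, with 4 of the 9 above it. The 3 collagens among the mesenchymal markers and EPCAM among the epithelial ones also define the classes. Their percentages, and so the ranges, medians and counts above, are partly set by the class boundaries. How much of each level came from free RNA or mixed droplets was not tested.

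Because 3CK cells were deeper, every cell was thinned to 5000 UMIs before shares of cells were compared, which left out 944 CNT and 335 3CK cells below that depth. CXCL5 was the most widespread member in epithelial cells: 5.85% of 1060 CNT cells and 63.4% (59.9 to 66.8) of 776 3CK cells carried a UMI. CXCL2 followed with 6.51% and 42.0%, CXCL1 with 3.40% and 24.2%, CXCL3 with 3.21% and 21.3% and CXCL8 with 1.32% and 12.9%. CXCL6 at 0.189% and 2.45% and CSF3 at 0.0943% and 2.58% stayed rare. CXCL5 was thus first in 3CK epithelium both by level and by share of cells.

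In mesenchymal cells (320 in CNT, 107 in 3CK) CXCL1 was the most widespread, in 6.88% of CNT and 51.4% (41.5 to 61.2) of 3CK cells. CXCL8 was in 0.938% and 41.1% and CSF3 in 0.313% and 35.5% (26.5 to 45.4). CXCL2 was in 10.3% and 33.6%, CXCL5 in 2.81% and 27.1%, CXCL3 in 1.88% and 14.0% and CXCL6 in 0.625% and 12.1%. CSF3, in 2.58% of epithelial cells, was therefore a gene of a sizeable minority of mesenchymal cells. Without thinning the 3CK shares in epithelial and mesenchymal cells were 86.7% and 71.0% for CXCL5, 59.7% and 69.4% for CXCL1, 39.6% and 62.9% for CXCL8 and 12.6% and 41.1% for CSF3, at median depths of 72198 and 65363 UMIs. In CNT, at 37807 and 23220 UMIs, the unthinned shares were 14.4% and 6.76% for CXCL5, 11.0% and 12.3% for CXCL1, 3.81% in both classes for CXCL8 and 0.121% and 0.520% for CSF3.

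The members were also found together in single cells. At 5000 UMIs at least 1 of the 7 was seen in 14.6% of CNT and 80.9% of 3CK epithelial cells, and in 18.4% and 76.6% of mesenchymal cells. At least 3 were seen in 1.42% and 23.8% (20.9 to 27.0) of epithelial cells and in 1.88% and 37.4% (28.2 to 47.3) of mesenchymal cells. The classes parted at higher numbers: 2.84% (1.79 to 4.26) of 3CK epithelial but 15.9% (9.54 to 24.2) of mesenchymal cells had 5 or more. Cells with 6 members numbered 2 of 776 and 8 of 107, and none had all 7 at this depth. A fraction of the treated cells showed none: 19.1% of epithelial and 23.4% of mesenchymal cells. These shares move with the depth chosen: at least 3 members were found in 26.4% of 3CK mesenchymal cells at 2000 UMIs and in 49.1% at 10000.

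**Figure D4:**
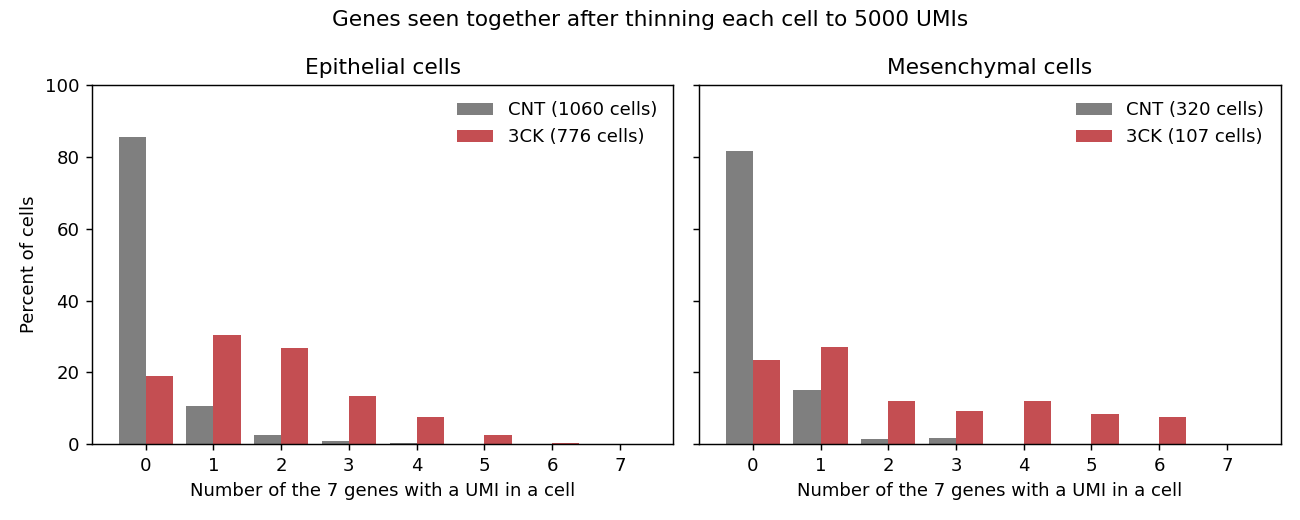
Percent of cells (thinned to 5000 UMIs) by the number of the 7 genes with a UMI, for epithelial and mesenchymal cells of CNT and 3CK. Most CNT cells carry none (85.4% of epithelial, 81.6% of mesenchymal cells), whereas 50.6% of 3CK epithelial and 49.5% of 3CK mesenchymal cells carry at least 2.

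Several pairs of members tended to share cells, as a description over cells of 1 library. In 3CK mesenchymal cells CXCL8 was seen in 78.9% of the 38 cells with a CSF3 UMI and in 20.3% of the other 69. CXCL1 was seen in 84.2% and 33.3% of the same cells. The growth factor and these 2 chemokines thus shared cells. The same held in epithelial cells, where 20 cells had a CSF3 UMI: CXCL1 was seen in 12 of them and in 23.3% of the other 756, and CXCL8 in 7 of them and in 12.3%. CXCL3 and CXCL5 also went together. In epithelial cells CXCL5 was seen in 89.1% of 165 cells with CXCL3 and in 56.5% of the other 611, and in mesenchymal cells in 66.7% of 15 and in 20.7% of the other 92. CXCL1 was seen in 52.0% of the 100 epithelial cells with CXCL8 and in 20.1% of the other 676.

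The genes whose level per cell was most like each member were ranked by Pearson's r over 3CK cells with at least 10000 UMIs (106 mesenchymal, 730 epithelial). These values are descriptions, since cells of 1 library share depth and culture. In mesenchymal cells CXCL1 went with CXCL8 (r = 0.79), IL6 (0.69), the cytokine of the acute phase, and CSF3 (0.66). CXCL8 went next with IL1B (0.76), and CSF3 with CXCL8 and IL1B (both 0.71). CXCL2 and CXCL3 also had CXCL8 as their nearest gene, at 0.62 and 0.63. CXCL8, CXCL1 and CSF3 were thus each among the genes nearest to another of the 3 in these cells. The values with depth itself were lower, at 0.37 for CXCL1, 0.26 for CXCL8 and 0.18 for CSF3. In epithelial cells the nearest genes were CXCL5 for CXCL3 (0.64), CXCL8 for CXCL1 (0.58) and CCL20, the chemokine of the receptor CCR6, for CXCL5 (0.55 after CXCL3). CXCL2 there went with NFKBIA (0.36), the feedback inhibitor of NF-κB, and ZC3H12A (0.35), an RNase that degrades cytokine mRNAs. CSF3 in epithelial cells went with CCL2 (0.44), CXCL1 (0.38) and LGALS1 (0.37), while its r with CXCL5 was 0.05. CXCL6 went with CXCL1 (0.41), TFPI2 (0.30) and CXCL8 (0.29) in epithelial cells. In mesenchymal cells CXCL6 went with ATP8B4 (0.50), AL139383.1 (0.49) and CXCL1 (0.49).

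A few barcodes carried much of the signal. Among the 124 mesenchymal cells of 3CK, 50% of the UMIs were reached with the top 5 barcodes for CXCL1, CXCL8 and CSF3, with 9 for CXCL2, with 4 for CXCL5 and CXCL6 and with 3 for CXCL3. Single barcodes held 28.5% of mesenchymal CXCL3, 24.6% of CXCL5, 17.2% of CXCL1 (3323 UMIs) and 14.6% of CXCL8 (2099 UMIs). In the 1016 epithelial cells 111 barcodes were needed for CXCL2, 77 for CXCL5, 39 for CXCL3, 27 for CXCL1, 21 for CXCL8 and 4 each for CXCL6 and CSF3. CXCL2 and CXCL5 were thus spread over the epithelium, whereas epithelial CSF3 rested on few cells, 1 of which held 19.9% of its UMIs.

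**Figure D5:**
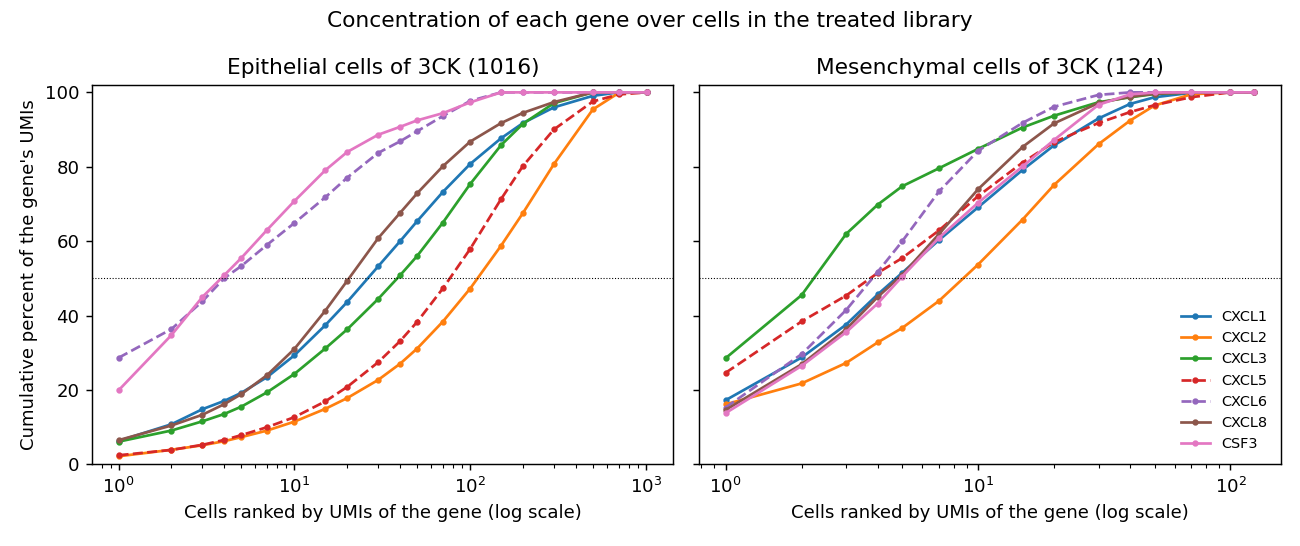
Cumulative percent of the UMIs of each gene in 3CK epithelial and mesenchymal cells against the number of barcodes (log axis), ranked from the highest. The curves for CXCL8, CXCL1 and CSF3 reach 50% with 5 of 124 mesenchymal barcodes, and the epithelial curves of CXCL2 and CXCL5 need 111 and 77 of 1016.

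The 20 barcodes of 3CK with the most UMIs of the 7 genes, 1.43% of the cells, were then described, a choice made after the values were seen. They were 10 mesenchymal, 3 epithelial and 7 unclassified barcodes with 44752 to 264905 UMIs each. They held 62.5% of all CXCL8 UMIs of the library, 52.6% of CSF3 and 49.7% of CXCL1, but 5.86% of CXCL5. Their median EPCAM was 0.180 per 10000 UMIs, against 8.81 in epithelial cells, and their median VIM, a mesenchymal filament gene, was 51.9, against 37.9 in mesenchymal and 3.71 in epithelial cells. COL1A1 was at a median of 1.61, below the 5.16 of the mesenchymal class. IL1B was seen in 18 of the 20 and IL6 in 19. Of leukocyte genes TYROBP was seen in 16 and CD14 in 3, while PTPRC had 0 UMIs in all 20. In CNT the 20 highest barcodes were 15 epithelial and 5 mesenchymal and held 73.6% of the CXCL8 UMIs.

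The cells in neither class matter for CSF3, since 49.9% of its 3CK UMIs lay there, against 37.2% in mesenchymal and 13.0% in epithelial cells. For CXCL5 the shares were 5.92%, 2.96% and 91.1%, and for CXCL8 26.7%, 57.6% and 15.7%. The unclassified 3CK cells were of 2 kinds when divided by EPCAM, a split also made after the values were seen. The 175 cells with under 1 EPCAM UMI and under 5 collagen UMIs per 10000 had 496 CPM of CSF3, 1453 CPM of CXCL1, 828 CPM of CXCL8 and 196 CPM of CXCL5, beside 3252 CPM of VIM and 985 CPM of IL1B, at a median depth of 11890 UMIs. The 83 cells with intermediate EPCAM had 21.2 CPM of CSF3, 119.7 CPM of CXCL1, 35.6 CPM of CXCL8 and 263 CPM of CXCL5, beside 947 CPM of VIM. In the 175 cells the summed levels of CXCL1, CXCL8 and CSF3 were nearer to the mesenchymal than to the epithelial class. However, DCN at 306 CPM was below the mesenchymal 1208 CPM and TTR at 1248 CPM above the mesenchymal 238 CPM. They are left without a name. The 12 leukocyte markers summed to 649 CPM in all unclassified 3CK cells and 304 CPM in those of CNT, of which S100A9 gave 473 and 267 CPM. In mesenchymal cells the 12 markers summed to 73.6 CPM untreated and 197 CPM treated. Of the treated sum CD68 gave 91.4 and TYROBP 87.9 CPM, and 33 of the 41 PTPRC UMIs of 3CK lay in mesenchymal cells. Of the 7 markers that reached 1 CPM in either class of 3CK, 3 were at least 2-fold higher in mesenchymal cells, against 19.0% of genes. Another 3 were at least 2-fold lower, against 16.8%. The part of these transcripts in the chemokine levels was not tested. In CNT 0 of the 255 unclassified cells had a CSF3 UMI, which allows a share of up to 1.18% of cells with a UMI (3 counts of the total) and, since many of these cells were shallow, sets no limit on cells expressing the gene.

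Within the 3CK epithelium the members were higher in the lowest than in the highest tertile of TTR. In the lowest and the highest TTR tertile (339 cells each, median depth 58777 and 90061 UMIs) CXCL5 was at 751 and 502 CPM, CXCL1 at 210.4 and 123 CPM, CXCL8 at 70.6 and 45.9 CPM and CSF3 at 16.1 and 2.91 CPM. All 7 had the higher level in the lowest tertile. The lowest tertile held 360 and the highest 78 of the 1036 CSF3 UMIs of 3CK epithelial cells. Most thus lay in the middle tertile, so CSF3 did not fall steadily with TTR. Its top 4 barcodes held 50.9% of these UMIs. Of the cells thinned to 5000 UMIs, those with a UMI of LCN2 in the thinned counts, an antimicrobial protein of inflamed epithelium, had 941 CPM of CXCL5 against 429.5 CPM in those without, 281 against 98.8 CPM of CXCL1 and 94.9 against 31.5 CPM of CXCL8 (268 and 508 cells). In CNT the 21 epithelial cells with LCN2 had 277 CPM of CXCL8 against 4.96 CPM in the 1039 without. There CXCL5 was at 125 against 20.5 CPM and CXCL1 at 48.1 against 11.6 CPM. CXCL6 and CSF3 were not higher, with 1 and 0 UMIs in the 21 cells. A single barcode held 376 of the 822 CXCL8 UMIs of CNT epithelial cells. By the same split of thinned counts, with levels again from all UMIs of the cells, mesenchymal 3CK cells with a UMI of IL1B (30, median depth 94970.5 UMIs) had 4325 CPM of CXCL8, 4914 CPM of CXCL1 and 817 CPM of CSF3, against 245, 762 and 88.7 CPM in the 77 without (median depth 72390). In CNT the 16 mesenchymal cells with IL1B had 0 UMIs of CXCL1 (upper limit 4.00 CPM). Only 12.3% of all 577 CNT mesenchymal cells had a CXCL1 UMI, and the top barcode held 26.1% of these UMIs. So few cells cannot show whether CXCL1 went with IL1B in CNT.

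Transcripts of the chemokine receptors were at or near 0. CXCR1 had 0 UMIs in both libraries and CXCR2 12 UMIs in CNT and 7 in 3CK. CSF3R was at 7.80 and 5.61 CPM (log2 ratio -0.48) and lay mainly in the epithelium, with 5.72 CPM in 3CK epithelial cells (401 UMIs) and 0.548 CPM in mesenchymal cells (5 UMIs). The decoy receptor ACKR1 had 78 and 71 UMIs over all cells, of which mesenchymal cells held 4 in CNT and 36 in 3CK. Among receptors of the added cytokines 7 of 8 passed 1 CPM, with a median of 0.36. Of these TNFRSF1B (2.74) and IFNGR1 (1.82) were at least 2-fold higher in 3CK, against 6.97% of all genes. IL1R1 (-1.38) and its partner IL1RAP (-1.07) were at least 2-fold lower, against 11.4% of all genes.

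Among 18 transcription regulators of the pathway 8 were at least 2-fold higher in 3CK over all cells and 0 lower, with a median log2 ratio of 0.95. Of all genes 6.97% were higher and 11.4% lower by that measure. The largest ratios were those of IRF1 (4.01), the interferon-induced factor, ATF3 (1.80), a stress-induced factor of the AP-1 group, and NFKBIA (1.73). The smallest were those of FOS (-0.95), EGR1 (-0.40) and JUN (0.16), the immediate early genes. CEBPB was at 1.31 and the NF-κB subunits RELA and NFKB1 at 0.65 and 0.59. Of 10 genes of mRNA decay and feedback 3 were at least 2-fold higher and 0 lower, against the same shares of all genes, with a median of 0.31. The 3 were ZC3H12A (2.66), TNFAIP3 (2.33), a ubiquitin-editing brake on NF-κB, and its partner TNIP1 (2.32). HNRNPD (0.02), KHSRP (-0.03) and ZFP36L2 (-0.51), which act on AU-rich mRNAs, had the smallest ratios. These factors are also background genes of many other pathways.

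Of 11 other cytokines of myeloid cells 7 were at least 2-fold higher in 3CK, against 6.97% of all genes, with a median of 1.27. CSF2, or GM-CSF, had 2 UMIs untreated and 486 treated, 8.07 (6.21 to 11.12), an interval that overlapped that of CSF3. IL1B was at 4.62 and IL6 at 3.51. The smallest ratios were those of IL1A (0.41), IL33 (-0.20) and IL34 (-0.45). Within the IL-17 list 1 of 5 genes was at least 2-fold higher, against the same 6.97% of all genes. It was the epithelial cytokine IL17C, with 28 and 249 UMIs and a ratio of 3.30. Of the 2 classes the mesenchymal one had more IL1B and IL6, as for CXCL8 in 3CK: IL1B was at 18.8 and 633 CPM in CNT and 3CK mesenchymal cells and at 3.14 and 12.6 CPM in epithelial cells, and IL6 was at 35.9 and 722 CPM and at 2.69 and 11.2 CPM.

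The neighbours of the chemokine genes on chromosome 4 went both ways. Of 13, 11 passed 1 CPM, with a median of -0.17. Of these 3 were at least 2-fold higher in 3CK and 5 at least 2-fold lower, against 6.97% and 11.4% of all genes. Both were thus larger shares than over all genes. The higher ones were the EGF receptor ligands EREG (3.29), AREG (2.34) and BTC (2.00). AFM (-3.13), ALB (-1.72) and AFP (-1.69), the albumin family next to the cluster, had the smallest ratios. Near CSF3 on chromosome 17, 3 of 4 genes passed 1 CPM and none differed 2-fold: PSMD3 was at 0.40, MED24 at 0.08 and THRA at -0.73.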

How the data were processed

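The data are 10x Genomics 3′ single-cell libraries, 1 per group. The deposited matrices hold the authors' raw UMI counts per gene and barcode, made with Cell Ranger 7.1.0 on GRCh38 per the submitters' processing notes. The annotation is not given in the sources used here, and 0 columns were left unused. Barcodes with at least 500 genes and at most 20% mitochondrial UMIs were kept (718 CNT and 227 3CK barcodes removed). Scrublet in scanpy 1.11.5 itself marked 1 and 7 barcodes, so the highest scores were removed instead at 0.8% per 1000 barcodes (52 and 16). Counts were summed per library and class and scaled to CPM over all UMIs (Python 3.11.15, numpy 2.4.6, scipy 1.17.1). Sums carry exact Poisson intervals, shares exact Clopper-Pearson intervals (where no cell had a UMI, 3 divided by the number of cells is the upper limit), and ratios the interval of a binomial share. With 1 library per group no test was made. A call means at least 2-fold with at least 1 CPM in either group; counts among the 7 members do not use the CPM minimum. A count of 0 was set to 3 UMIs, which are 0.0295 CPM in CNT and 0.0327 CPM in 3CK. edgeR 4.0.16 gave TMM factors for an alternative scaling only. The calculations were tested on simulated data.

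The members and lists were chosen with earlier results of these data known. Named were all 7 members and the 3 largest and 3 smallest ratios of each list. Genes most like a member were taken from its 3 nearest among genes with at least 20 CPM. Other genes serve as markers or were named after their values were seen. Class boundaries, filters, doublet removal, scaling, the CPM minimum, thinning depth and equal weights per cell were varied.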

Additional observations from a re-analysis of the deposited data

How the results depend on the processing

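All 7 genes stayed at least 2-fold higher in 3CK in all, epithelial and mesenchymal cells under every alternative run. TMM factors moved all log2 ratios by 0.18 in the mesenchymal comparison of 3CK with CNT, by -0.39 between the classes in CNT and by -0.18 in 3CK, and leaving out mitochondrial, ribosomal and the 50 most abundant genes moved them by -0.12 (epithelial) to -0.005 (between the classes in 3CK). The direction of CXCL1 between the classes of CNT reversed with stricter boundaries (-0.29, 338 mesenchymal cells). Those boundaries also took the CNT count of members at least 2-fold higher in mesenchymal cells from 3 to 0, with too few CSF3 UMIs for a ratio. The count at least 2-fold lower there was 1, and 2 with no filter, with equal weight per cell or without the top barcode, and 3 with TMM, with the reduced scaling or with stricter boundaries. The share of 3CK cells with at least 3 members was 11.5%, 37.1% and 64.3% in epithelial and 26.4%, 49.1% and 67.7% in mesenchymal cells at 2000 UMIs, 10000 UMIs and without thinning. CXCL8 in epithelial cells ranged from 1.85 to 3.98 (3CK over CNT), the latter with equal weight per cell. Removal of the top barcode and classes by DCN and LUM were added after the data had been seen. The causes were not tested. No paired analysis was possible because each group is 1 library.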
